A study of Mus musculus with 11 samples.

Results

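The 10 genes described here encode glutathione S-transferases (GSTs) and were taken by symbol from a list of the family, as 10 of the 15453 genes with a value for every mouse. The family was selected on the measured WT and knockout values of Gsta3 in these same mice, which were higher in the knockouts, and the question was whether its relatives share that difference. The genotype differences of the members are therefore a description. Their intervals and the counts of members past a threshold are printed to show size and spread, and are no independent test of the family. All 10 reached the minimum level used here for counting a gene, a genotype mean of 50 normalized tags.

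Transcripts were counted by SAGE, serial analysis of gene expression, in the epididymal fat depot (eWAT, a white adipose tissue) of 11 male C57BL/6 mice (C57BL/6J in the study's methods) aged 16 weeks, 6 wildtype (WT) and 5 with a paternally inherited knockout allele of Mest (pKO). Mest is imprinted and expressed from the paternal copy. The knockout allele lacks exon 3 after a germline Cre deletion, so the loss affected every tissue and not fat alone, and the WT mice were littermates. All mice of both genotypes ate a high fat diet (HFD) from 8 weeks of age, and each library came from a separate mouse, with between 9659740 and 14825727 tags for WT and between 11320342 and 14626803 for pKO mice. The study selected these 11 mice from a larger cohort and reported significantly higher adiposity in the WT mice. Genotype and adiposity differ together here and cannot be told apart. Mest itself lay between 20756 and 27897 normalized tags in the WT group and between 793 and 2275 in the pKO group, which matches the labels. The adipocyte markers Fabp4 and Adipoq were abundant in both genotypes, with WT means of 655817 and 65204 normalized tags.

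GSTs join the tripeptide glutathione to reactive, fat-soluble molecules, which makes them easier to export, and several also reduce peroxides. The soluble enzymes form classes named alpha, mu, theta, zeta, omega and others, Gstk1 belongs to a separate mitochondrial and peroxisomal kind, and Mgst1 sits in membranes. In fat the alpha enzyme Gsta4 is known for clearing 4-hydroxynonenal, an aldehyde formed when lipids are oxidized.

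In SAGE each transcript is counted once, by a short tag beside its last CATG, the site cut by NlaIII, so that normalized tags compare levels per transcript whatever the transcript length. Tags of 25 bases computed from the GENCODE M21 transcripts are shown for closely related pairs and for the members whose genotypes differed most, to show that these tags differ. Capitals mark the NlaIII site, and each tag is written 5′ to 3′ on the transcript strand.
Gsta3: CATGaatgatggatacagcagggac
Gsta4: CATGtatgcagatggcacccaggac
Gstm1: CATGgccccttcttcattggctccc
Gstm2: CATGagtgctctgctggccctagct
Gsto1: CATGtctgaaaactgtgatttcccc
Mgst1: CATGaattaaaaacattacaaatga
The Gsta3 tag lies in the 3′ UTR in exon 7 of 7, at chr1:21265470-21265494 of GRCm38 on the plus strand, and the Gsta4 tag in the coding part of exon 5 of 7, at chr9:78205918-78205942 on the plus strand. Those of the neighbouring genes Gstm1 and Gstm2 lie in their 3′ UTRs at chr3:108012459-108012483 and chr3:107981994-107982018, both on the minus strand. The 3′ UTR tags of Gsto1 and Mgst1 lie at chr19:47864719-47864743 and chr6:138156729-138156753, both on the plus strand. The tags of Gsta3 and Gsta4 differed at 10 of 25 bases. For the transcript chosen for each gene, none of the 10 members shared this tag with the last-CATG tag of another annotated gene. The tag of Gstp1, a relative outside the list, was also that of Gstp2 and Gstp-ps. The same letters elsewhere in other transcripts were not searched for. Which tag or tags the authors' software summed for each gene is not given in the sources used here, and 8 of the 10 members have transcripts with more than 1 such tag.

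The members covered a wide range of levels. Gstz1, the zeta enzyme that isomerizes maleylacetoacetate in tyrosine breakdown, was the most abundant, with a WT mean of 15857 ± 1757 normalized tags (SD, n = 6). Gsta3 followed at 5206 ± 1976 and Gstm1 at 4046 ± 541. Next came Gsto1 at 1564 ± 277, Gstm2 at 1471 ± 383, Gstt1 at 1280.2 ± 582 and Gstt2 at 1276 ± 158. The least abundant were Gstk1 at 643 ± 48.1, Mgst1 at 313 ± 57.4 and Gsta4 at 197 ± 87.7. The WT ranges of neighbours in this order overlapped for Gsta3 and Gstm1, for Gsto1 and Gstm2, for Gstm2 and Gstt1, for Gstt1 and Gstt2 and for Mgst1 and Gsta4. They did not overlap for Gstz1 and Gsta3, Gstm1 and Gsto1, Gstt2 and Gstk1 or Gstk1 and Mgst1. In pKO mice the first 3 genes kept their order by mean, while Gsto1 stood 7th. The fewest tags behind a member's value in a library were 120, for Gsta4.

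**Figure D1:**
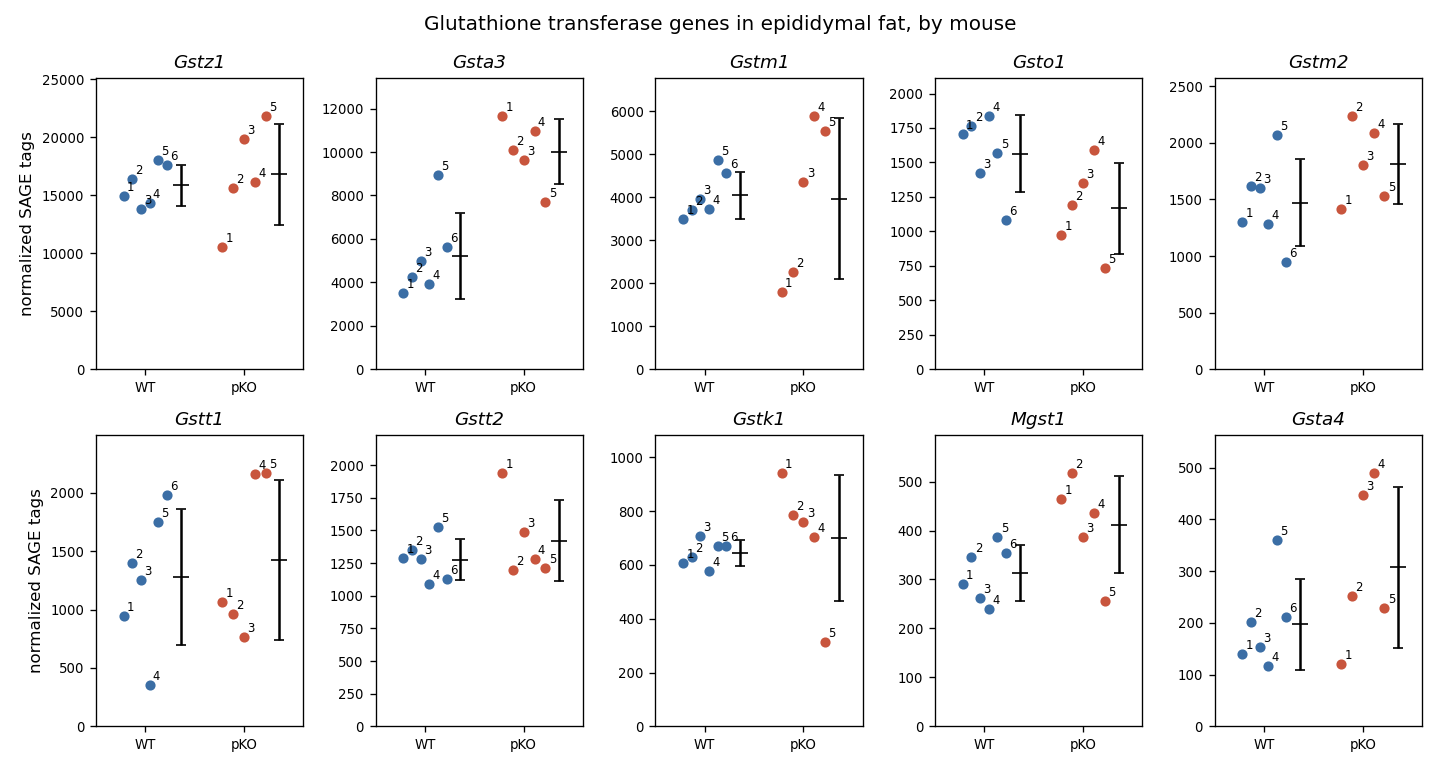
Normalized SAGE tags of the 10 listed glutathione transferase genes in each mouse (points, numbered by replicate; blue, WT, n = 6; red, pKO, n = 5), with the mean and SD of each genotype as a black bar and each axis starting at 0. For Gsta3, 4 pKO mice lie above every WT mouse, and the genotypes overlap in all 10 genes.

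The alpha enzymes came first in the size of their difference. Gsta3, known in mice for detoxifying the aflatoxin epoxide, had 3511 normalized tags in the lowest WT mouse, a median of 4616 and 8929 in the highest. In pKO mice 1 to 5 it had 11641, 10099, 9635, 10945 and 7709, a mean of 10006 ± 1498 (SD, n = 5). All of the overlap came from WT replicate 5, since the other WT mice reached at most 5635, below every pKO mouse. The ratio of the means was 1.92, and the difference on the log2(value + 1) scale was 1.002 (standard error 0.21, 95% interval 0.54 to 1.46). Leaving out WT replicate 5 gave 1.17, and leaving out any other mouse gave no less than 0.90.

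Gsta4 had 117 normalized tags in the lowest WT mouse, a median of 177 and 360 in the highest. Its pKO values were 120.2, 252, 447, 489 and 229. Mice 3 and 4 of the pKO group were above every WT mouse, and pKO mouse 1 was level with the lowest. The mean ratio was 1.56, and the log2 difference of 0.57 had an interval from -0.19 to 1.34 (standard error 0.36). The interval thus included both 0 and the difference of Gsta3. Without pKO replicate 4 the difference was 0.36, and without pKO replicate 1 it was 0.87.

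The mu enzymes Gstm1 and Gstm2 conjugate a broad range of reactive compounds, and their genes are neighbours on chromosome 3. Gstm1 ran from 3484 to 4858 normalized tags in WT mice, with a median of 3837, and had 1797, 2266, 4361, 5882 and 5542 in the pKO mice. The pKO mice lay on both sides of the WT range, 2 below it and 2 above it. The log2 difference was -0.17 (standard error 0.28, 95% interval -0.77 to 0.43), and it was 0.08 without pKO replicate 1, so its sign depended on that mouse. Gstm2 ran from 948 to 2072 in WT mice, with a median of 1452, and had 1410.5, 2232, 1804, 2084 and 1527 in pKO mice. Of the pKO values, 4 exceeded the WT median and 2 exceeded the WT range. The log2 difference of Gstm2 was 0.32 (standard error 0.19, 95% interval -0.09 to 0.73), and 0.20 without WT replicate 6. In Gstm1 and Gstm2, pKO mouse 1 was the lowest of its group.

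Theta enzymes act on small halogenated compounds and peroxides. Gstt1 was the most variable member among WT mice, from 352 in replicate 4 to 1977 in replicate 6 with a median of 1329. In pKO mice it had 1064, 959, 762, 2161 and 2166 normalized tags. The pKO mice split into 3 within the WT range and 2 above it. The log2 difference of 0.20 had a standard error of 0.41 and a 95% interval of -0.68 to 1.09, and it was -0.13 without WT replicate 4, so its sign depended on that mouse. Gstt2 varied less, from 1087 to 1524 in WT mice with a median of 1284, and with 1938, 1198, 1488, 1278 and 1215 in pKO mice. Only pKO mouse 1 lay above the WT range of Gstt2. The log2 difference of Gstt2 was 0.14 (standard error 0.15, 95% interval -0.17 to 0.46) and was 0.02 without that mouse.

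Gstz1 ran from 13842 to 18040 normalized tags in WT mice, with a median of 15678, and had 10538, 15664, 19888, 16172 and 21797 in pKO mice. Again pKO mouse 1 was the lowest, below every WT mouse, and mice 3 and 5 were above every WT mouse. The log2 difference was 0.05 (standard error 0.18, 95% interval -0.33 to 0.43), and was 0.21 without pKO replicate 1, -0.02 without pKO replicate 3 and -0.06 without pKO replicate 5. The interval left out a difference as large as that of Gsta3.

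Gstk1, also known for its part in the assembly of adiponectin multimers, was tightly held in WT mice, from 576 to 708 normalized tags with a median of 649. In pKO mice 1 to 5 it had 940.0, 784, 759, 702 and 315. Here pKO mouse 1 was the highest, 3 pKO mice lay above the WT range, and mouse 5 had less than any WT mouse. The log2 difference was 0.04 (standard error 0.23, 95% interval -0.45 to 0.52). It was 0.30 without pKO replicate 5 and was negative without pKO replicate 1, 2 or 3, at -0.09, -0.03 and -0.01.

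Gsto1, an omega enzyme that reduces dehydroascorbate and mixed disulfides, was the member with the most negative difference. Its WT values ran from 1085 to 1834 normalized tags with a median of 1638, and its pKO values were 974, 1193, 1348, 1589 and 736. None of the pKO mice exceeded the WT median, and mice 1 and 5 were below every WT mouse. The ratio of the means was 0.747 and the log2 difference was -0.45 (standard error 0.20, 95% interval -0.87 to -0.03). Leaving out pKO replicate 5 gave -0.29, and leaving out pKO replicate 4 gave -0.57.

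Mgst1, the membrane-bound member that also reduces lipid hydroperoxides, ran from 239.9 to 386 normalized tags in WT mice with a median of 318. The pKO values were 464, 517, 387, 435 and 257. As for Gsta3, 4 pKO mice lay above every WT mouse, although pKO mouse 3 did so by less than 1 normalized tag, and mouse 5 was the lowest of its group. The ratio of the means was 1.32 and the log2 difference was 0.38 (standard error 0.19, 95% interval -0.03 to 0.78). Without pKO replicate 5 it was 0.54, and without pKO replicate 2 it was 0.29.

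**Figure D2:**
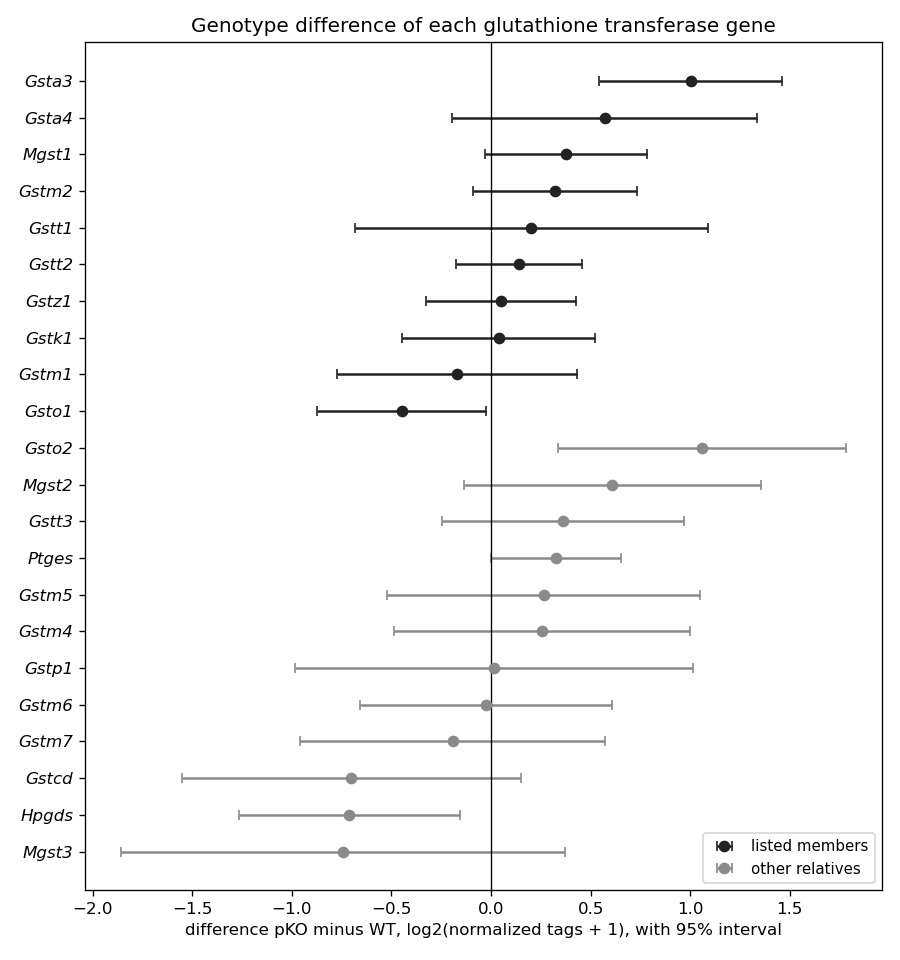
Difference pKO minus WT on the log2(normalized tags + 1) scale for the 10 listed members (black) and the 12 other relatives with values (grey), with 95% intervals from limma, 6 WT and 5 pKO mice. The members run from 1.002 for Gsta3, the gene on whose values the family was selected, to -0.45 for Gsto1.

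Across the family, 8 of 10 members had a difference above 0, against 51.3% of the 9906 genes that reached the minimum mean. The median difference was 0.17 for the members and 0.01 for those genes. The difference was below 0 for Gstm1 and Gsto1. With limma and Benjamini-Hochberg adjustment over all genes, 0 of 10 members were called with an adjusted p up to 0.1, where 0.0505% of the 9906 genes were called, 0.0404% lower and 0.0101% higher. Gsta3 was past that threshold in 2 of 22 fits, with DESeq2 and without WT replicate 5, and the other members in none. The study, by its own test of these libraries, did call Gsta3. Its PCR assay of RNA levels also gave significantly higher Gsta3 in pKO eWAT, in these mice and, by less, in their whole cohort. In inguinal fat the assay gave no difference. At an unadjusted p of at most 0.05, 1 member was higher, against 4.85% of genes, namely Gsta3, for which the selection fixed the result, and 1 was lower, Gsto1, against 5.77%. No member had genotypes that did not overlap, which 1.43% of genes did. Because the list was made with the Gsta3 difference in view, nothing is read from these shares. Of the 10 members, 6 kept the sign of their difference in all 22 fits, and Gstk1, Gstm1, Gstt1 and Gstz1 did not.

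Summed over the 10 genes, member tags were 0.262% ± 0.0344 of a WT library (SD, n = 6) and 0.306% ± 0.0464 of a pKO library (SD, n = 5). The ranges overlapped, 0.231% to 0.312% for WT and 0.246% to 0.355% for pKO mice. Without Gsta3 the sums were 0.219% ± 0.0221 and 0.226% ± 0.0531, so the other 9 genes together differed by less than the spread between mice. Gstz1 and Gstm1 made up most of that sum, with 49.8% and 12.7% of the WT level of all 10 members. The sum therefore says little about the members with few tags. Gsta3 made up 16.0% ± 3.53 of the member tags in WT and 27.0% ± 7.08 in pKO mice. Its share was 37.7% in pKO mouse 1, the mouse in which the other 9 members took the smallest share of the library.

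**Figure D3:**
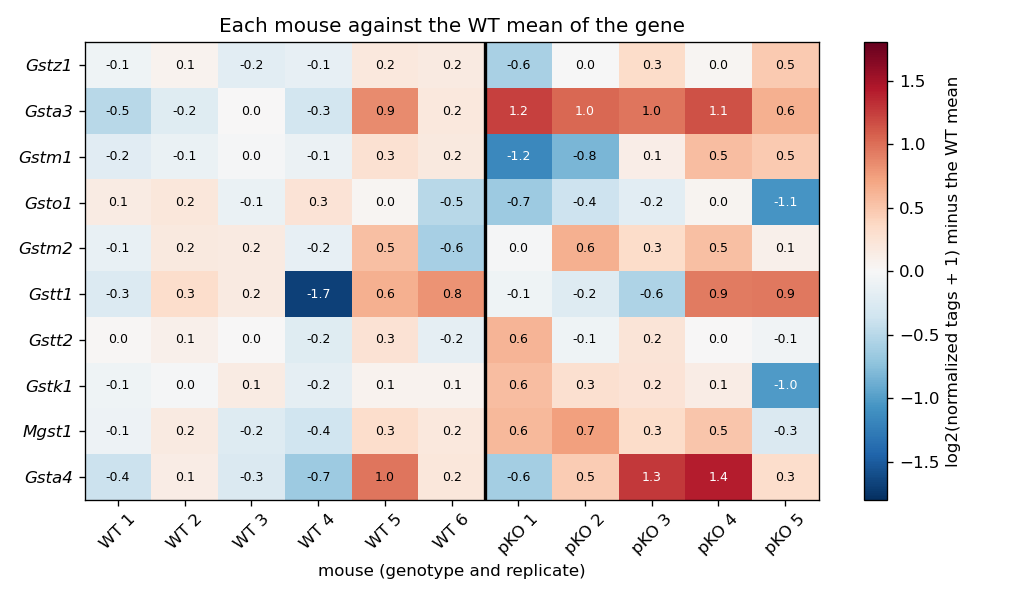
Log2(normalized tags + 1) of each member in each mouse minus the WT mean of the gene (red above, blue below; the black line separates WT from pKO mice). Gsta3 is above 0.5 in all 5 pKO mice and in WT mouse 5, whereas pKO mouse 1 combines high Gsta3 and Gstk1 with low Gstz1 and Gstm1.

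Single mice shaped several of the values. WT mouse 5 had the highest WT value in 7 of 10 members (Gsta3, Gsta4, Gstm1, Gstm2, Gstt2, Gstz1 and Mgst1), a place it took in 17.3% of the 9906 genes. WT mouse 4 was the lowest in 5 members, against 19.9% of genes. In the pKO group mouse 1 was the highest in 3 members and the lowest in 4, and it was the highest or lowest of its group in 27.7% and 26.8% of genes. Mouse 5 was the lowest pKO mouse in 4 members, Gsta3, Gstk1, Gsto1 and Mgst1.

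The spread between mice was wider in the pKO group for 7 of 10 members, against 72.6% of the 9906 genes. The ratio of the log2 SDs, pKO to WT, had a median of 1.49 in the members and 1.46 in those genes. It was 5.65 for Gstk1, 4.14 for Gstm1 and 2.54 for Gstz1. Without pKO mouse 5 the ratio of Gstk1 was 1.65. Without pKO mouse 1 the ratios of Gstm1 and Gstz1 were 3.35 and 1.45. Gsta3 went the other way, with a ratio of 0.47, which was 0.84 without WT mouse 5 and 0.25 without pKO mouse 5.

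Members varied in different ways from mouse to mouse. After the mean of each genotype was subtracted, the 45 pairs of members had a median Pearson r of 0.18 over the 11 mice. The highest value was that of Gstm1 with Gstz1 (r = 0.78, Spearman rho = 0.69, exact permutation within genotypes p = 0.031 and 0.046, adjusted p = 0.37 and 0.34 over 45 pairs). Without the 2 mice farthest from the median of Gstm1, r was 0.79. Gsta3 was closest to Mgst1 (r = 0.65, rho = 0.76, exact permutation p = 0.015 and 0.011, adjusted p = 0.33 and 0.32), and without the 2 farthest mice r was 0.73. Gsta3 with Gstk1 had the smallest permutation p of all pairs (r = 0.46, rho = 0.65, exact permutation p = 0.0097 and 0.016, adjusted p = 0.33 and 0.32), and r was 0.75 without the same mice. Gstk1 and Mgst1 had r = 0.76 (rho = 0.63, exact permutation p = 0.033 and 0.036, adjusted p = 0.37 and 0.32), which dropped to 0.47 without the 2 mice farthest from the median of Gstk1. No pair passed an adjusted p of 0.05, and 5 of 45 had an unadjusted p of at most 0.05.

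Among all 9905 other genes with the minimum mean, those most like Gsta3 by the same centred Pearson r over 11 mice were Cyp2e1 (0.90), Acadsb (0.83), Nsun6 (0.83), Rptor (0.82) and Mogat1 (0.81). Cyp2e1, a cytochrome P450 that oxidizes ethanol and small solvents, had WT values from 523 to 1524 and pKO values of 2890, 2015, 1383, 1927 and 1709 normalized tags. Its highest pKO value was that of mouse 1, as with Gsta3. In each of these genes, as in Gsta3, the highest WT value was that of mouse 5. The log2 differences were 1.30 for Cyp2e1, 0.43 for Acadsb, 0.13 for Nsun6, -0.0008 for Rptor and 0.09 for Mogat1. As the highest of 9905 values over 11 mice, these r were picked by size and were not tested. Mgst1 ranked 71st in this order, followed among the members by Gstt2 at rank 443 and Gsta4 at rank 473. The pooled r with Gsta3 was 0.02 for Gstm1, -0.03 for Gsto1 and -0.05 for Gstz1, but the genotypes had opposite signs. Within the 6 WT mice these were 0.95, -0.40 and 0.69, and within the 5 pKO mice -0.54, 0.60 and -0.85, each from too few mice to test. Gsta4 and Gstt1 also differed in sign between genotypes, with 0.90 and 0.60 in WT and -0.13 and -0.33 in pKO mice.

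**Figure D4:**
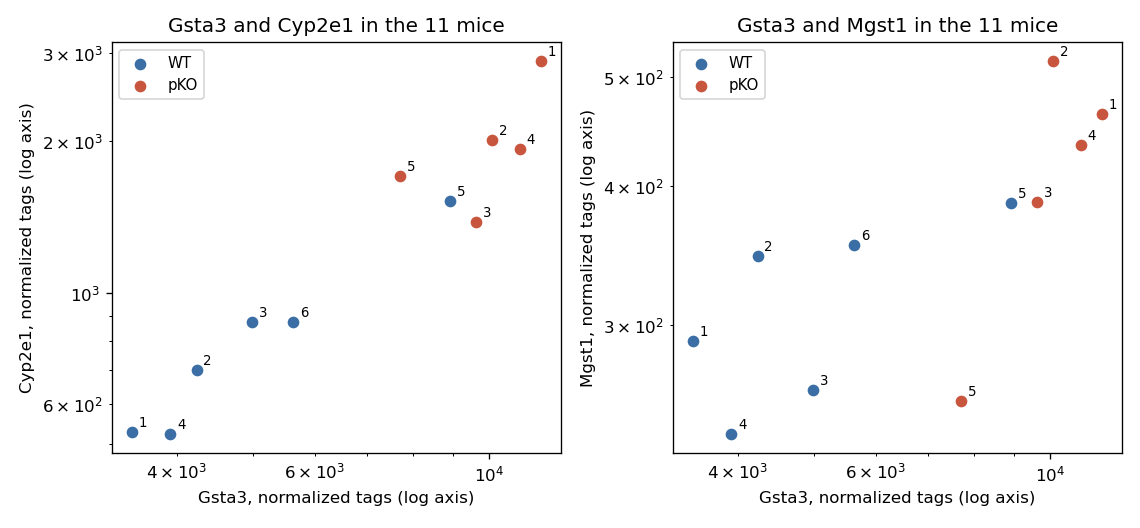
Normalized tags of Gsta3 against those of Cyp2e1 (left) and Mgst1 (right) in each mouse, on log axes, numbered by replicate (blue, WT; red, pKO). WT mouse 5 lies among the pKO mice in the left panel, with 8929 tags of Gsta3 and 1524 of Cyp2e1.

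Of the 19 relatives outside the list, 12 had values and 8 of these reached the minimum mean. By limma with Benjamini-Hochberg adjustment 0 relatives were called with an adjusted p up to 0.1, and with an unadjusted p up to 0.05 there were 0 higher and 1 lower of 8, against 4.85% and 5.77% of all genes. The lower one was Hpgds, the sigma-class enzyme that makes prostaglandin D2, with 131 to 236 normalized tags in WT mice and 139.9, 195, 61.1, 122 and 145 in pKO mice. Apart from WT mouse 5, the lowest, the WT values of Hpgds were all above the pKO values. Its log2 difference was -0.71 (standard error 0.26, adjusted p = 0.43, limma).

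The other relatives had differences in both directions. Ptges, a prostaglandin E synthase of the same membrane family as Mgst1, had a log2 difference of 0.32 (standard error 0.15, adjusted p = 0.53) and 4 pKO mice above every WT mouse. The membrane enzymes Mgst2 and Mgst3, which can act on leukotriene A4, had 0.61 (standard error 0.35, adjusted p = 0.60) and -0.74 (standard error 0.52, adjusted p = 0.67). Mgst3 was at 168 in pKO mouse 5, against 642 to 2368 in the other pKO mice, and its difference was -0.15 without that mouse and -1.10 without pKO mouse 1. Among the mu genes, Gstm5 had a difference of 0.26 (adjusted p = 0.86) that rested on pKO mouse 1, at 4461 normalized tags, and was -0.17 without it. Gstm6 had -0.03 (adjusted p = 0.99) and Gstm7 -0.19 (adjusted p = 0.90), and the theta gene Gstt3 had 0.36 (adjusted p = 0.72).

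Gsto2, Gstcd, Gstm4 and the pi gene Gstp1 stayed under the minimum mean. Gsto2 had 8.08 ± 3.37 normalized tags in WT and 18.2 ± 8.16 in pKO mice, a log2 difference of 1.06 (standard error 0.34, adjusted p = 0.37, limma), in the opposite direction to its neighbour Gsto1. Gstp1 had 42.1 ± 29.0 in WT and 39.7 ± 20.9 in pKO mice. Gstcd, with 17.7 ± 2.66 in WT and 12.3 ± 6.30 in pKO mice, and Gstm4, with 4.55 ± 1.73 and 5.73 ± 2.19, were low in both genotypes.

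The surrounding glutathione pathway was read in 5 lists. No gene of these lists was called with an adjusted p up to 0.1 by limma, and of the 72 genes with the minimum mean 8 were higher and 1 lower at an unadjusted p of at most 0.05, against 4.85% and 5.77% of all genes. Of 20 genes for glutathione synthesis and turnover that reached the minimum mean, 2 were higher and 0 lower, with a median log2 difference of -0.06. They were Glo1, which clears methylglyoxal with glutathione (0.37, standard error 0.11, adjusted p = 0.37), and Nat8l, which makes N-acetylaspartate and is no glutathione enzyme (0.57, standard error 0.22, adjusted p = 0.44). With DESeq2 the adjusted p of Glo1 was 0.044. G6pdx, a source of the NADPH that keeps glutathione reduced, had -0.48 (standard error 0.22, adjusted p = 0.53). The subunits of the enzyme that limits glutathione synthesis, Gclc and Gclm, had differences of -0.05 and 0.06.

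Among 10 glutathione peroxidases and glutaredoxins 2 were higher and 0 lower, with a median of 0.10. Gpx1 had 11157 ± 7574 normalized tags in WT and 18366 ± 5026 in pKO mice (1.03, standard error 0.47, adjusted p = 0.52), and Gpx5, a peroxidase known from the epididymis, had 35.8 ± 7.43 and 62.0 ± 27.8 (0.68, adjusted p = 0.49). The difference of Glrx2, a mitochondrial glutaredoxin, was 0.41 (adjusted p = 0.62). For removal of reactive aldehydes 2 of 18 genes were higher and 0 lower, with a median of 0.16. They were Abcc1, an exporter of glutathione conjugates (0.57, standard error 0.23, adjusted p = 0.47), and the aldehyde dehydrogenase Aldh1a7 (0.46, standard error 0.20, adjusted p = 0.50), while the aldo-keto reductase Akr1b10 had -0.39 (adjusted p = 0.62).

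NRF2 is the transcription factor best known for inducing GST genes when cells are stressed. In the list of its pathway and targets 0 of 17 genes were higher and 1 was lower, with a median of -0.03. The lower gene was Maff, a small partner of NRF2, at -0.49 (standard error 0.16, adjusted p = 0.37). Its relative Mafk had -0.43 (adjusted p = 0.55), the carbonyl reductase Cbr3 had -0.37 (adjusted p = 0.55), and the gene for NRF2 itself, Nfe2l2, had -0.03. Of 7 receptors and factors that respond to foreign compounds or lipids, 2 were higher and 0 lower, with a median of 0.15. They were Cebpa, a transcription factor of mature adipocytes (0.35, standard error 0.13, adjusted p = 0.43), and the aryl hydrocarbon receptor Ahr (0.46, standard error 0.17, adjusted p = 0.44). The fatty acid sensor Ppara had 0.41 (adjusted p = 0.64).

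Because NRF2 and its partners bind the antioxidant response element, promoters were searched for the core letters TGACNNNGC, or GCNNNGTCA on the other strand, from 250 bases before to 50 after each RefSeq start (GRCm38.p6). Of the 8 members with a window, 2 held a match, Gsta3 and Mgst1, against 14.0% of all genes. Of the 12 relatives 2 held one, Gstm5 and Gstm7, with differences of 0.26 and -0.19. The member matches are shown with the core in capitals and 8 bases on each side, and nothing about the differences is read from them.
Gsta3 promoter: ctcaggcaTGACATTGCatttttct
Mgst1 promoter: ggggcttgGCACGGTCAggaggcgg
The core letters lie at chr1:21240464-21240472 for Gsta3 and at chr6:138140471-138140479 for Mgst1, both genes on the plus strand. They begin 121 and 56 bases before the start site. A match of these letters is a description of the sequence and was not tested for binding.

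Markers of other cells were read in the same libraries. Because the tissue was measured in bulk, fewer cells of a type and less RNA per cell cannot be told apart. Of 9 macrophage markers with the minimum mean, 0 were higher and 4 lower in pKO mice at an unadjusted p of at most 0.05 (Itgam, Itgax, Trem2 and Cd14). Over all genes the shares were 4.85% higher and 5.77% lower. The remaining macrophage markers had log2 differences of -0.01 for Emr1, 0.23 for Cd163, -0.24 for Csf1r, -0.31 for Lyz2 and -0.23 for Mrc1. The summed level of the macrophage list was 4311 to 6622 normalized tags for WT and 3865 to 5258 for pKO mice. Of 7 mesothelial markers 3 were higher and 0 lower, with sums of 1363 to 1980 and 1574 to 3608. Of 9 fibroblast and progenitor markers 2 were higher and 0 lower, with sums of 55099 to 67242 for WT and 65929 to 77731 for pKO mice. Blood markers summed to 378 to 961 in WT and 652 to 1656 in pKO mice. In the liver list, of the 9 genes with values only Alb reached the minimum mean, with a mean of 309.9 ± 148 for WT and 941 ± 408 for pKO mice, while Apoa1, Ttr, Fgb and Fga were at 0 in some mice. No gene of these lists was called at an adjusted p of at most 0.1.

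Over 80 combinations of a member with the summed level of 1 of 8 marker lists, none had an adjusted p of at most 0.05 for the genotype-centred r. The highest r was that of Gstk1 with the mesothelial sum (r = 0.84, rho = 0.60, exact permutation p = 0.016 and 0.042, adjusted p = 0.25 and 0.47, n = 11), and it was 0.23 without the 2 mice farthest from the median of that sum, so it rested on those mice. The lowest was that of Gstz1 with the same sum (r = -0.83, rho = -0.67, exact permutation p = 0.018 and 0.041, adjusted p = 0.25 and 0.47), at -0.49 without them. Gstz1 also had r = -0.80 with the fibroblast and progenitor sum (rho = -0.76, exact permutation p = 0.0014 and 0.012, adjusted p = 0.11 and 0.33), and -0.77 without the 2 farthest mice. For Gsta3 the r was 0.50 with the epididymis and testis sum, 0.44 with the adipocyte and 0.44 with the mesothelial sum. It was 0.14 with blood, 0.12 with liver, -0.26 with fibroblast and progenitor, -0.54 with macrophage and -0.56 with endothelial sums. The part of these cell types in the member differences was not tested.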

How the data were processed

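RNA from eWAT of 6 WT and 5 pKO mice was primed at the poly(A) tail, and the cDNA was cut with NlaIII and EcoP15I to give 1 tag per transcript, sequenced on a SOLiD instrument. The authors mapped tags with a modified SOLiD SAGE Analysis Software v1.10. The submitters' processing notes name mm10 and edgeR 3.2.3. The annotation is not given in the sources used here. The deposited signal values are normalized tag counts, in which each library had its own divisor: 100% of values were whole multiples of 1 step per library (tolerance 0.01 tags). Recovered totals were 9659740 to 14825727 tags. Every pair of libraries differed by more than sampling noise (lowest chi-square per degree of freedom 17.7).

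Here log2(value + 1) of all 15453 genes was fitted with limma 3.58.1 (R 4.3.3; genotype, mean-variance trend) and Benjamini-Hochberg adjustment, and genes were called if their adjusted p was 0.1 or lower and either genotype mean reached 50. The log2 scale with a pseudocount of 1 understates changes of genes with few tags. The procedure was run on simulated data with the same spread in both genotypes, a setting that does not cover the wider pKO spread seen here. On the recovered tags, edgeR 4.0.16 called 5 genes and DESeq2 1.42.0 called 121 of 9906 with the minimum mean. Other alternatives were pseudocounts of 0.5 and 10, total-count and TMM scaling, a minimum of 10 tags, no trend, robust variances, a replicate block, and each mouse left out.

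The members and lists were chosen with earlier results of these data known. Named genes were the members, all relatives with values, up to 3 genes per pathway list with the smallest p, the 5 genes most like Gsta3, and markers that moved. Gclc, Gclm and Nfe2l2 fall outside this rule and were named for their roles after their values were seen. Tags came from GENCODE M21 (GRCm38) and promoters from RefSeq. P-values for genotype compare the difference with the spread between mice. Correlations used genotype-centred values, with 86400 permutations of mice within genotypes.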

Additional observations from a re-analysis of the deposited data

Results flagged for a closer look

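In 84 groups of mice, 1 for each genotype and named gene, the highest or lowest mouse was compared with the others by Dixon's test at the 95% level. It stood apart in 6, where chance gives about 1 in 20, or 4.2 groups. None of the 20 groups of the members was among them. Gstm5 was at 4461 normalized tags in pKO mouse 1, against 860 to 1129 in the other pKO mice. Hpgds was at 131 in WT mouse 5, against 207 to 236 in the other WT mice. In the same WT mouse Cyp2e1 was at 1524, against 523 to 876, and Acadsb at 385, against 213 to 271. Nat8l was at 90.1 in pKO mouse 5, against 133 to 149, and G6pdx at 907 in pKO mouse 2, against 375 to 512.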

How the results depend on the processing

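The member differences moved by less than 1 SD between mice in all 210 alternative values (10 genes in 21 fits). For many of them this was fixed in advance, since leaving out 1 mouse cannot move a difference that far. No trend, robust variances and a minimum of 10 tags leave the member differences unchanged. The replicate block dropped WT replicate 6 and gave the same differences as leaving that mouse out. In each of the 10 alternatives other than leaving out each mouse in turn, 8 members stayed above 0. Leaving out single mice gave 6 to 8. Gsta3 ranged from 0.94 to 1.04 over those 10 alternatives, the latter with the replicate block, and from 0.90 to 1.17 without single mice. Its adjusted p was 0.20 in limma, 0.018 with DESeq2 and 0.026 without WT replicate 5, and between 0.11 and 0.60 in the other fits, the last with the replicate block. Glo1 had an adjusted p of 0.044 with DESeq2. Cyp2e1 had 0.0066 with DESeq2 and 0.030 in limma without WT replicate 5. No scaling moved the median of all genes by more than 0.1. The 4 lower and 1 higher genes called became 9 and 2 with at least 10 tags in every library, 63 and 58 with DESeq2, and 2 lower at an adjusted p of at most 0.05. Without single mice they were 2 to 65 lower and 1 to 26 higher. The highest counts came without pKO replicate 2, and without WT replicate 5 they were 8 and 4. Relatives at an unadjusted p of at most 0.05 were 1 higher with DESeq2, and 0 to 2 higher and 1 to 2 lower without single mice, with 2 lower without pKO replicate 1 and 2 higher without pKO replicate 2. Pathway genes lower in pKO mice were 4 with total-count scaling and 2 each with TMM factors, DESeq2 and robust variances. Without single mice there were 4 to 10 higher (4 without pKO replicate 5) and 1 to 5 lower (5 without pKO replicate 2). Differences changed sign for Gstm6 (0.14 in edgeR and in DESeq2) and for Gstp1 (-0.0016 with a pseudocount of 10, -0.0194 with total-count scaling, -0.0936 in edgeR, -0.0875 in DESeq2). Without single mice they spanned both signs for Gstm5 (-0.17 to 0.42), Gstm6 (-0.27 to 0.29), Gstm7 (-0.36 to 0.0217), Gstp1 (-0.23 to 0.30), Rptor (-0.0396 to 0.0401) and Mogat1 (-0.0557 to 0.20). The cause was not tested.

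Mice of the same replicate number showed no shared deviation on average (mean correlation -0.024, range -0.092 to 0.14). For different numbers the mean was 0.0046, with a range of -0.33 to 0.28. The same-number pairs are too few to detect a weak pairing. With the replicate block, for which WT replicate 6 has no partner and was dropped, the genes called were 1 lower and 0 higher, 1 relative was higher and 3 pathway genes were lower. Few tags limit Gsto2, Gstcd, Gstm4 and Gstp1.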
